A study of Mus musculus with 16 samples.

Results

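Among 16 osteoclast cultures, the 5 with the least and the 5 with the most RNA of Ctsk were set side by side, whatever their genotype. Ctsk encodes cathepsin K, the protease with which osteoclasts degrade bone collagen. The 10 cultures were chosen by this measured level (counts per 1000000 of the library total), so every difference between them is a description and carries no p-value, and Ctsk is left out of the results. The low set comprised 3 FLT3 ITD Ptprc KO cultures (replicates 4, 2 and 1, at 1254, 1293 and 1944 counts per 1000000 of Ctsk), FLT3 ITD replicate 4 (3797) and Ptprc KO replicate 4 (6048). The high set comprised FLT3 ITD replicates 3 and 1 (11702 and 12091), Ptprc KO replicates 3 and 2 (14157 and 15749.6) and FLT3 ITD replicate 2 (17081). The other 6 cultures lay in between, from 6694 in Ptprc KO replicate 1, the next above the low set, to 9872 in WT replicate 2, the next below the high set. All 4 WT cultures were in between, no FLT3 ITD Ptprc KO culture was in the high set, and FLT3 ITD and Ptprc KO cultures were in both sets.

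**Figure D1:**
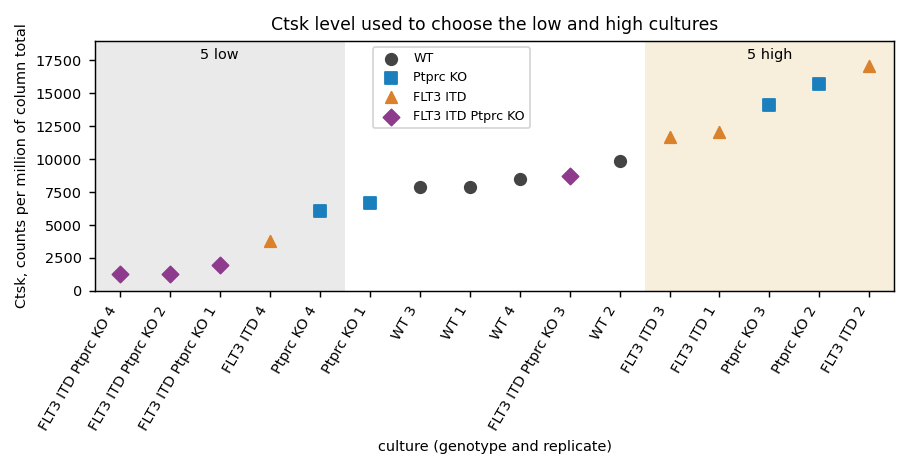
Ctsk level (counts per 1000000 of the library total, vertical axis) of each of the 16 cultures, ordered from low to high, with the genotype as symbol and colour. The 5 cultures in the grey field (1254 to 6048) and the 5 in the yellow field (11702 to 17081) are the low and high sets, and the 4 WT cultures lie between them.

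All cultures were grown from CD11b+ bone marrow cells of C57BL/6J mouse lines with 4 genotypes, 4 cultures of each: wild type (WT), a knockout of Ptprc, the gene of the leukocyte phosphatase CD45 (Ptprc KO), a knocked-in Flt3 allele with an internal tandem duplication, by which this receptor kinase signals without ligand (FLT3 ITD), and both alleles together (FLT3 ITD Ptprc KO, called the double mutant from here on). Every culture received M-CSF at 50 ng/ml for 3 days and then RANKL at 20 ng/ml as well, and RNA was taken as soon as mature osteoclasts were seen, on day 3 to 5. The day of each single culture was not given in the sources used here. The labels do not say that replicates came from separate animals, and no culture is labelled as treated with the FLT3 inhibitor that the growth protocol mentions.

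Osteoclasts are large cells with many nuclei that form by fusion of macrophage precursors under M-CSF and RANKL. RANKL acts through the receptor RANK and the transcription factor NFATc1, while repressors such as IRF8, which keep precursors in the macrophage state, decline. The mature cell seals itself to bone by a ring of podosomes, pumps acid onto the surface with a vacuolar ATPase, secretes proteases, and carries many mitochondria.

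Libraries held 24211724 to 35773313 counts, and 12092 genes other than Ctsk had enough counts to be compared. Ptprc stood at 30.8 to 86.7 CPM in the 8 libraries labelled as knockouts and at 230.1 to 542 CPM in the other 8 (CPM are counts per 1000000 of the library size after TMM scaling). FLT3 ITD replicate 2 stood apart in that its levels relative to the mean of all libraries fell off with gene length (Spearman rho over genes of -0.46). FLT3 ITD replicate 4, a low culture, had a weaker trend of the same sign (-0.181), and all other libraries had 0.035 to 0.181. FLT3 ITD replicates 1 and 3 were the closest pair of libraries (chi-square per gene 2.76, next closest pair 13). FLT3 ITD replicates 1, 2 and 3 lie in the high set. Whether replicates 1 and 3 are separate cultures was not settled by the labels, so n = 5 for the high set may hold 1 culture under both of these replicates. The markers of an osteoclast culture were present in every library, with Acp5 from 1216 CPM and Calcr from 3.33 CPM upwards.

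Of the 12092 genes, 4209 (34.8%) were apart, meaning that the range of the 5 low cultures did not overlap that of the 5 high ones. Among them 2160 (17.9%) were higher in the high set and 2049 (16.9%) higher in the low set, and these shares are the background for every gene group below. A difference of at least 2-fold was seen in 1198 and 962 of these genes. The difference of a gene is given as the mean log2 CPM of the high set minus that of the low set, and its median over all genes was -0.06. Without FLT3 ITD replicate 2, 2808 genes were apart and higher in the high set and 2729 higher in the low set. With FLT3 ITD replicates 1 and 3 averaged the counts were 2232 and 2132. For the gene groups described below, the median difference without replicate 2 and with the pair averaged was 1.49 and 1.501 for resorption genes, 1.11 and 1.345 for the V-ATPase, and 1.83 and 1.73 for fusion genes. It was 0.84 and 1.15 for complex I, 0.98 and 1.22 for complexes II to V, and 1.22 and 1.34 for the TCA cycle. It was -1.59 and -1.53 for repressors of osteoclast differentiation, -1.94 and -2.19 for macrophage genes, and -1.38 and -1.415 for NRF2 targets. The lower limit is a close one: ranked by Ctsk CPM after TMM scaling, Ptprc KO replicate 1 takes the place of Ptprc KO replicate 4, and 1739 genes were then apart and higher in the high set and 1254 in the low set. In bulk RNA, fewer cells of a type and less RNA per cell cannot be told apart.

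The genes of bone resorption stood higher in the high set. Of 19 measured enzymes and acid transport genes, 13 were apart and higher in the high set, 1 was apart and higher in the low set, and the median difference was 1.47. Levels are listed in the order of rising Ctsk, that is for double-mutant replicates 4, 2 and 1, FLT3 ITD 4 and Ptprc KO 4 in the low set, and for FLT3 ITD 3 and 1, Ptprc KO 3 and 2 and FLT3 ITD 2 in the high set. Acp5, the tartrate-resistant acid phosphatase by which osteoclasts are stained, was at 1216, 1594, 1362, 3223 and 4656 CPM in the low cultures and at 8413, 8571, 10502, 11505 and 12729 CPM in the high ones. Its mean was 2410.1 ± 1491 against 10344 ± 1867 CPM (SD, n = 5 and 5), and the 2 single-mutant cultures of the low set held more of it than the 3 double mutants. Car2, the carbonic anhydrase that supplies protons, was at 54.6, 67.7, 62.5, 180.2 and 243 CPM in the low cultures and at 618, 627, 884, 872 and 744 CPM in the high ones, a difference of 2.88. The order within the low set was the same as for Acp5 at its upper end, with Ptprc KO replicate 4 the highest and FLT3 ITD replicate 4 the next. Ckb, a creatine kinase that regenerates ATP, showed the widest difference of the list (3.11), from 881 ± 419.5 to 6995 ± 1384 CPM (SD, n = 5 and 5).

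The transport genes of the ruffled border, the acid-secreting membrane, were likewise higher. Slc4a2, the bicarbonate and chloride exchanger of the opposite membrane, was at 158 to 352 CPM in the low set and 713 to 1015 CPM in the high set. Clcn7, the lysosomal chloride and proton exchanger, was at 319 to 469.6 and 909.6 to 1509.6 CPM, and its partner Ostm1 at 75.3 to 129.8 and 191 to 242 CPM. These ranges do not overlap, nor do those of Slc9b2 (difference 2.25), Snx10 (1.95), Plekhm1 (1.12) and Rab38 (3.10), genes of ion exchange and vesicle traffic. The matrix metalloproteinases Mmp9, at 7195 ± 2896 CPM in the low set and 25613 ± 4466 CPM in the high set (SD, n = 5 and 5), and Mmp14, with a difference of 1.47, were apart as well.

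The other cathepsins did not stand higher in the high set. Ctsl, the gene of cathepsin L, a protease of lysosomes in many cell types, was apart and higher in the low set, at 1919, 1858, 2748, 3141 and 1575 CPM in the low cultures and 691, 680.2, 365, 397 and 1056 CPM in the high ones. The highest high culture, FLT3 ITD replicate 2, stayed below the lowest low culture, Ptprc KO replicate 4. Ctsd had a mean of 3729.7 ± 1614 CPM in the low set and 1399 ± 180.4 CPM in the high set, and Ctsb of 7360.1 ± 2768 and 3585 ± 113 CPM (SD, n = 5 and 5). The ranges of Ctsd and Ctsb overlapped, because double-mutant replicate 4 held 1574 and 3138 CPM of them. Ctsz (-0.10) and Ctsa (0.23) differed little between the sets.

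Subunits of the vacuolar ATPase stood higher in the high set, apart from 2 of the a subunits. Of 17 measured genes, 15 were apart and higher in the high set, with a median difference of 1.28 (1.11 without FLT3 ITD replicate 2). Atp6v0d2, the d subunit isoform typical of osteoclasts, was at 345, 457, 210.2, 456 and 871 CPM in the low cultures and 1677, 1723, 2102, 2090.2 and 1779 CPM in the high ones, and its widely expressed counterpart Atp6v0d1 differed by only 0.54. Atp6v1d (2.07), Atp6v1b2 (1.68) and the catalytic subunit Atp6v1a (1.54) had the next largest differences. The a subunit sets the membrane in which the pump works, and Tcirg1 encodes the a3 form of the ruffled border. Tcirg1 was at 924, 1124, 814, 999 and 1257 CPM in the low cultures and 2195, 2267, 2509, 2499 and 2017 CPM in the high ones. Atp6v0a1, the a1 form, ran the other way, at 91.2, 419, 123, 244 and 218 CPM in the low cultures and 65.99, 64.03, 40.8, 58.7 and 29.2 CPM in the high ones. It is the V-ATPase gene of the list that was apart and higher in the low set (-1.94), and double-mutant replicate 2 held the most of it. Atp6v0a2 showed 73.96 ± 6.79 and 63.6 ± 8.61 CPM (SD, n = 5 and 5) with overlapping ranges.

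On the deposited TPM scale, which takes gene length into account, Tcirg1 made up 76.4 to 89.3% of the summed a1, a2 and a3 transcripts in the low cultures and 96.0 to 97.4% in the high ones. The share of Atp6v0a1 was 6.07% in double-mutant replicate 4, 19.7% in replicate 2, 9.16% in replicate 1, 13.7% in FLT3 ITD replicate 4 and 10.4% in Ptprc KO replicate 4. In the high set it lay between 0.972 and 1.96%. Of the cultures in between, WT replicate 3 had an Atp6v0a1 share of 10.7%, within the low range, and the others had 1.64 to 5.01%.

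**Figure D2:**
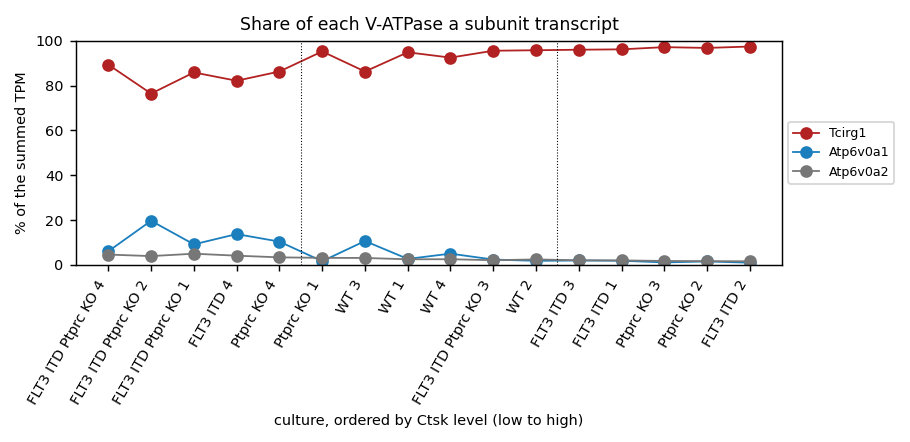
Share of each V-ATPase a subunit transcript (percent of the summed TPM of Tcirg1, Atp6v0a1 and Atp6v0a2, vertical axis) in the 16 cultures ordered by Ctsk, 1 point per culture, with dotted lines at the limits of the low and high sets. The Atp6v0a1 share is 6.07 to 19.7% in the low cultures, 0.972 to 1.96% in the high ones and 10.7% in WT replicate 3.

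Genes of lysosomes in general showed no common direction. Of 27 measured hydrolases and membrane proteins, 7 (25.9%) were apart and higher in the high set and 4 (14.8%) in the low set, with a median difference of 0.26. The shares over all genes were 17.9% and 16.9%, and 16 members overlapped. On the first side were, among others, Sgsh (1.33), Glb1 (1.02) and Gaa (1.01), hydrolases that break down heparan sulfate, galactosides and glycogen. The genes on the other side were the membrane proteins Lamp1 (-1.83), Lamp2 (-1.73) and Scarb2 (-1.54) and the acid lipase Lipa (-1.81), a hydrolase as well. Lamp1, for example, was at 950.2, 2118, 1539, 2059 and 1537 CPM in the low cultures and 487, 478, 388, 472 and 399 CPM in the high ones. Tfeb, a transcription factor of lysosomal genes, differed by -0.28 with overlapping ranges.

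Because the pump genes stood together, their promoters were searched for CACGTG, the E-box to which factors of the TFEB family bind. RefSeq windows (GRCm38.p6) from 250 bases before to 50 bases after the start were available for 11 of the 17 pump genes, as 13 windows, and 4 of these (30.8%) held the letters, which read the same on both strands. Of the windows of all genes compared 9.92% held them, and of all RefSeq promoters in the table it was 7.15%. Of the windows of the lysosomal list 8 of 25 (32%) held them, and of the fusion list 0 of 18. Among genes that were apart the shares were 8.87% (higher in the high set) and 10.4% (higher in the low set), near that of all genes. The window of Atp6v0b, a proteolipid subunit with a difference of 1.27, is shown because it holds the letters at 2 places, in capitals at positions -36 and -18 from the start (chr4:117887280-117887579, minus strand, 5′ to 3′). A match describes the letters and shows neither binding nor a cause.
Atp6v0b: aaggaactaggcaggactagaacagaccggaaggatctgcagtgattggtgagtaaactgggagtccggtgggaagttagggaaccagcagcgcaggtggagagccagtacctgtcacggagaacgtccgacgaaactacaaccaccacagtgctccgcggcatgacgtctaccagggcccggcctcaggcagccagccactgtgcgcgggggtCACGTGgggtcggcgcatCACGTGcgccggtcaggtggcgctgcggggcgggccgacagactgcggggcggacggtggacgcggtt

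Fusion and identity genes of osteoclasts were higher in the high set in 12 of 22 measured members that were apart, against 4 the other way, with a median difference of 1.74. Calcr, the calcitonin receptor, was at 3.33, 9.61, 14.5, 32.2 and 63.4 CPM in the low cultures and 87.4, 88.97, 193, 226 and 70.5 CPM in the high ones. Ptprc KO replicates 3 and 2 stood above the rest of the high set, and the lowest high culture, FLT3 ITD replicate 2, was only just above Ptprc KO replicate 4 of the low set. Oscar, an immunoreceptor that costimulates NFATc1, was at 11.7, 29.8, 34.9, 103 and 124 CPM in the low cultures and 275, 285, 314, 386 and 255 CPM in the high ones. The fusion genes Dcstamp and Ocstamp were at 159.8 to 302 and 52.6 to 215 CPM in the low set and at 734 to 1146 and 373 to 523 CPM in the high set. Itgb3 and Itgav, which form the vitronectin receptor, differed by 2.08 and 1.32. Fam102a (2.89), the unconventional myosin gene Myo1d (2.73) and the actin-severing Scin (2.33) were apart as well. Siglec15, a fusion receptor, overlapped because FLT3 ITD replicate 2 held 23.6 CPM, where the other high cultures held 75.03 to 111 CPM and Ptprc KO replicate 4 of the low set 39.004 CPM. Adam8 (-2.11), Bst1 (-2.11), Anpep (-1.81) and Rgs18 (-1.67), although on this list, were apart and higher in the low set.

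**Figure D3:**
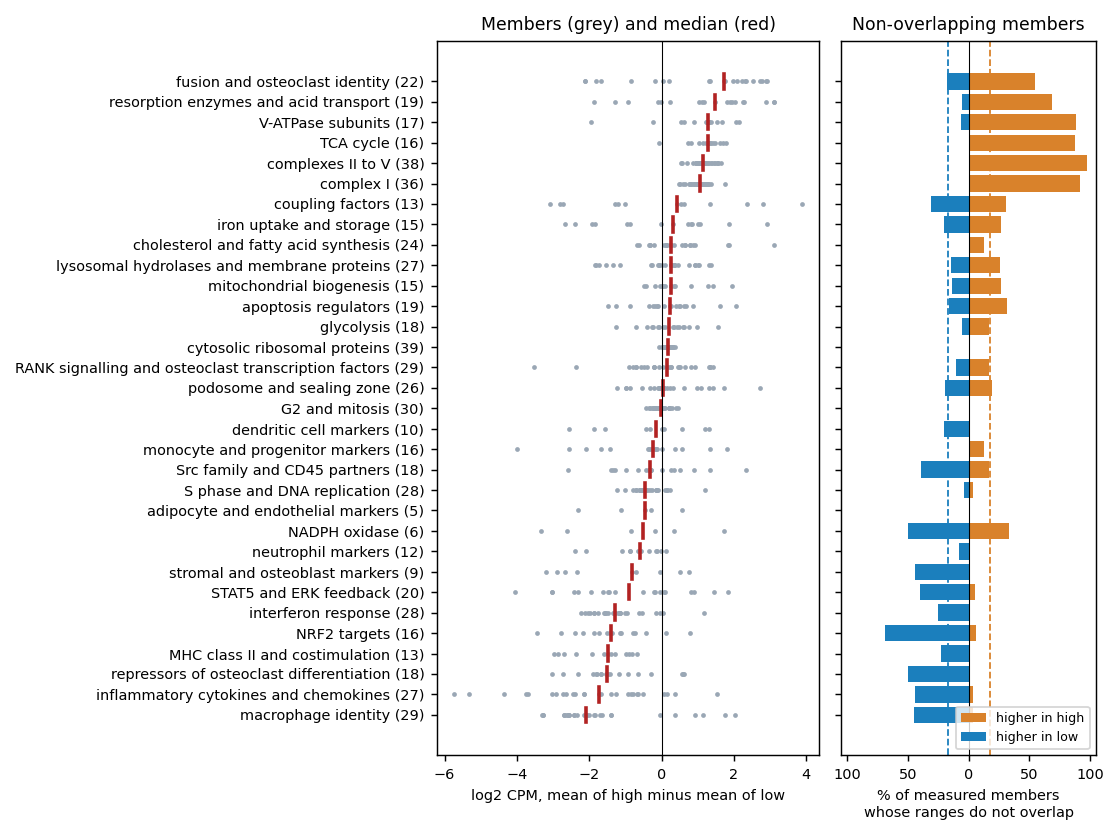
Difference between the high and low sets (mean log2 CPM of high minus low, left panel) for each measured member (grey points) and the median (red bar) of the gene lists with at least 5 measured members, whose number stands in parentheses. The right panel gives the percentage of members that were apart in each direction, and dashed lines mark the shares over all genes, 17.9% and 16.9%. Respiratory complexes, TCA cycle and V-ATPase lists lie far above these lines and ribosomal proteins and G2 and mitosis genes have no such member.

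Genes of the RANK pathway itself had a median difference close to that of all genes. Of 29 measured genes of RANK signalling and osteoclast transcription factors, 5 (17.2%) were apart and higher in the high set and 3 (10.3%) in the low set. The median was 0.14, and the shares over all genes were 17.9% and 16.9%. The receptor gene Tnfrsf11a was at 145 to 178 CPM in the low set and 201 to 263 CPM in the high set, a difference of 0.64, and Spi1, the gene of the myeloid factor PU.1, differed by 0.49. Nfatc1, the master regulator, was at 403, 146, 123, 127 and 382 CPM in the low cultures and 572, 586, 609.7, 759.7 and 318 CPM in the high ones. Its ranges overlapped, since double-mutant replicate 4 and Ptprc KO replicate 4 stood above FLT3 ITD replicate 2. Members of the AP-1 family parted: Fosl2 (1.35) and Jdp2 (1.31) were apart and higher in the high set, Fos (-0.71) overlapped, and Fosl1 was apart and higher in the low set. Fosl1 was at 12.1, 14.7, 8.48, 32.7 and 13.8 CPM in the low cultures and 1.47, 1.69, 0.907, 0.569 and 1.91 CPM in the high ones, with FLT3 ITD replicate 4 the highest. The costimulatory receptor gene Trem2 (-2.36) and the MiT factor gene Tfe3 (-0.89) were also apart and higher in the low set.

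Repressors of osteoclast formation lay on the low side. Of 18 measured genes, 9 were apart and higher in the low set and 0 in the high set, with a median of -1.504. Irf8, which keeps precursors in the macrophage state, was at 28.8, 108, 51.2, 87.4 and 65.3 CPM in the low cultures and 14.8, 14.004, 10.01, 16.55 and 8.23 CPM in the high ones. Bcl6, a transcriptional repressor, was at 29.7 to 72.4 CPM in the low set and 11.2 to 16.6 CPM in the high set. Cebpa (-2.72), a myeloid factor, and Socs3 (-3.02), an inhibitor of cytokine signalling, had the widest differences, and Klf2, Klf4, Rbpj and Irf2 were apart in the same direction. Double-mutant replicate 2 and FLT3 ITD replicate 4 had the highest mean of the list (6.21 and 5.83 on the log2 CPM scale), and double-mutant replicate 4 had the lowest of the low set (4.70), where the high set had 4.11 to 4.40. The inhibitors of NF-kB signalling Nfkbia (0.61), Tnfaip3 (0.57) and Cyld (0.59) had positive differences with overlapping ranges.

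Podosome genes showed no common direction, with 5 of 26 (19.2%) apart on each side, near the shares over all genes, and a median of 0.03. Cttn, the gene of cortactin, an organiser of branched actin, was at 25.7, 25.5, 15.8, 24.2 and 63.7 CPM in the low cultures and 159.5, 157, 221, 197 and 180.4 CPM in the high ones, and Vcl, the gene of vinculin, differed by 1.43. The GTPase gene Rac2 was at 301 to 452 CPM in the low set and 1019 to 1234 CPM in the high set, whereas its paralog Rac1 differed by -0.08 with overlapping ranges. Ezr (-1.23), Cbl (-0.99), Pak4 (-0.98), Ptk2b (-0.54) and Kif5b (-0.22) were apart and higher in the low set.

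Src-family kinases, substrates of CD45, parted by member. Src itself, needed for the ruffled border, was at 250.3, 185, 142, 167 and 308 CPM in the low cultures and 509, 500.0, 584, 568 and 432 CPM in the high ones. Fgr, a kinase of myeloid cells, was at 124, 308, 131, 238 and 174 CPM in the low cultures and 38.4, 38.2, 25.2, 34.6 and 21.7 CPM in the high ones. Fyn (-1.40) and Lyn (-0.29) were apart on the same side as Fgr. On the TPM scale the mean of Src was 158 ± 57.5 in the low set and 371 ± 63.9 in the high set, and that of Fgr 161.5 ± 53.6 and 25.6 ± 8.04 (SD, n = 5 and 5), so these transcripts had similar levels in the low set and Src the higher one in the high set. Over the whole list of 18 genes with CD45 partners, 3 (16.7%) were apart and higher in the high set and 7 (38.9%) in the low set. The shares over all genes were 17.9% and 16.9%.

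Genes by which osteoclasts act on bone-forming cells had members on both sides. Of 13 measured coupling factors, 4 (30.8%) were apart on each side, where the shares over all genes were 17.9% and 16.9%. In a list of this size such a count is a small one. Sphk1, the kinase that makes sphingosine-1-phosphate, was at 1.35, 2.94, 2.57, 2.83 and 4.39 CPM in the low cultures and 31.5, 35.3, 40.9, 37.8 and 58.3 CPM in the high ones, a 14.5-fold difference of the means. The ephrin gene Efnb2 (2.81) and the cytokine gene Lif (2.37) were on the same side. The growth factor gene Igf1 was at 106, 507, 214, 571 and 401 CPM in the low cultures and 40.2, 35.1, 33.7, 57.5 and 22.3 CPM in the high ones, and the complement gene C3 (-2.81) and the chemokine gene Cxcl16 (-2.73) were apart in that direction too.

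Nuclear genes of the mitochondrial respiratory chain had the largest shares of members apart and higher in the high set among the lists with at least 5 measured genes. All 36 measured subunits of complex I had a positive difference and 33 were apart, with a median of 1.06. Of the 38 measured genes of complexes II to V, 37 were apart and all differences were positive, with a median of 1.15. Ndufa4 was at 119, 100.79, 126, 128 and 184 CPM in the low cultures and 338, 332, 437, 406 and 794 CPM in the high ones. Sdhb, a succinate dehydrogenase subunit, had a mean of 165 ± 26.4 CPM in the low set and 469 ± 114 CPM in the high set, and Atp5b, a catalytic subunit of ATP synthase, of 1287 ± 211 and 2904 ± 235 CPM (SD, n = 5 and 5). Ndufa4 and Sdhb were highest in FLT3 ITD replicate 2, whose values trended with length. Without it the medians were 0.84 for complex I and 0.98 for complexes II to V, and its part in the size was not tested further. With TPM they were 0.97 and 1.07, where the median of all genes was -0.14.

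The TCA cycle followed the respiratory chain and glycolysis did not. Of 16 measured TCA genes 14 were apart and higher in the high set (median 1.28), and citrate synthase, Cs, was at 450.0, 310.4, 429.8, 344 and 452 CPM in the low cultures and 1082, 1077, 1245, 1104 and 960.3 CPM in the high ones. Of 18 glycolysis genes 3 were apart and higher in the high set and 1 in the low set, shares no larger than those of all genes, with a median of 0.21. With 1 library left out this median ran from 0.04 (without double-mutant replicate 2) to 0.32 (without double-mutant replicate 1). The exception on the low side was the glucose transporter gene Slc2a1, at 112, 204, 118, 287 and 141 CPM in the low cultures and 69.1, 80.2, 54.9, 59.1 and 81.1 CPM in the high ones. Ldha, the lactate dehydrogenase gene, overlapped (1009 ± 266 and 1253 ± 210.4 CPM, SD, n = 5 and 5). Of the regulators of mitochondrial number, the coactivator gene Ppargc1b was at 35.2, 17.3, 17.2, 14.2 and 42.9 CPM in the low cultures and 83.5, 86.3, 91.4, 105 and 79.99 CPM in the high ones, and its partner Esrra differed by 0.83. Tfam, which maintains mitochondrial DNA, differed by -0.03, and Nrf1 (-0.43) and Polg (-0.49) were apart and higher in the low set. Of 24 genes of cholesterol and fatty acid synthesis, Scd2, a desaturase (3.12), Nsdhl (0.93) and Srebf1 (0.64) were apart and higher in the high set. This share, 12.5%, was below the 17.9% of all genes. Cytosolic ribosomal proteins, a list with little difference, had 0 of 39 members apart and a median of 0.18.

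**Figure D4:**
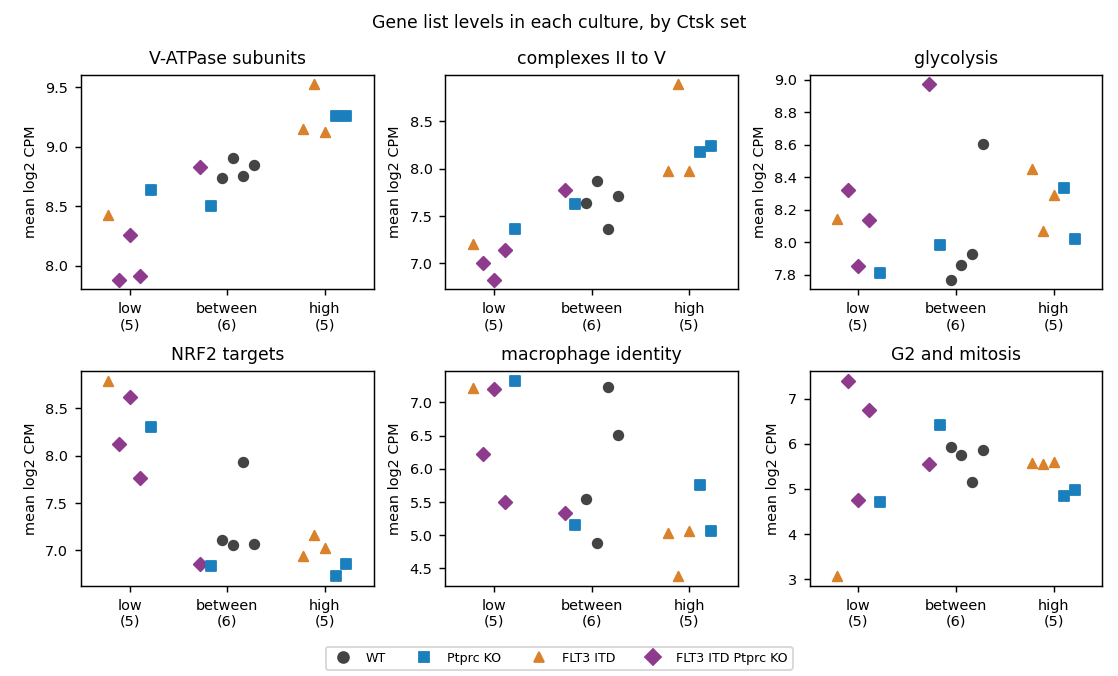
Mean log2 CPM over the measured members of 6 gene lists (vertical axis) in each culture, by Ctsk set, 1 symbol per culture with genotype as symbol and colour and the number of cultures in parentheses. V-ATPase and respiratory chain means separate the low from the high set, NRF2 targets separate them in the opposite direction, and G2 and mitosis means of the low set run from 3.07 to 7.395, across those of the high set.

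Iron genes, on which the respiratory chain draws, were apart in both directions, 4 of 15 (26.7%) higher in the high set and 3 (20%) in the low set. The other 8 overlapped, and the shares over all genes were 17.9% and 16.9%, so in a list of this size the split is close to that of all genes. Tfrc, the transferrin receptor, was at 518, 292, 557, 546 and 717 CPM in the low cultures and 1759.9, 1826, 1738, 1816 and 2175 CPM in the high ones, and the ferrireductase gene Steap4 differed by 2.91. The ferritin heavy chain gene Fth1 was at 7701, 16682, 10556, 21295 and 11406 CPM in the low cultures and 3039, 2815, 2877, 2905 and 5976 CPM in the high ones, and the macrophage metal exporter gene Slc11a1 differed by -2.66.

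Targets of NRF2, the factor that switches on antioxidant enzymes, had the largest share of members apart and higher in the low set among the lists with at least 5 measured genes. Of 16 measured genes, 11 were apart and higher in the low set and 1 in the high set, with a median of -1.40. Slc7a11, the cystine importer, was at 84.8, 323, 72.04, 291 and 173 CPM in the low cultures and 21.1, 22.2, 11.6, 12.7 and 9.22 CPM in the high ones, 12.3-fold higher by the means. Nqo1, a quinone reductase, was at 69.3, 54.4, 70.3, 46.1 and 29.4 CPM in the low cultures and 9.16, 7.33, 6.35, 3.59 and 14.6 CPM in the high ones. Prdx1, a peroxiredoxin, was at 2892 to 6062 CPM in the low set and 722 to 1667 CPM in the high set, and Gclm and Gclc, the glutathione synthesis enzymes, differed by -1.88 and -1.43. Hmox1, heme oxygenase, overlapped because double-mutant replicate 4 held 135 CPM, where the other low cultures held 313 to 1588 CPM. Gsr, glutathione reductase, was the member on the other side (0.78). The mean of the list was 7.76 to 8.79 in the low set and 6.73 to 7.16 in the high set (log2 CPM), and WT replicate 3, at 7.93, stood within the low range while the other WT cultures had 7.06 to 7.11.

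Promoter windows were available for 13 of these 16 genes, as 17 windows, and 8 (47.1%) held TGACNNNGC, the core of the antioxidant response element, on either strand. The share was 14.4% over the windows of all genes compared, 12.4% over all RefSeq promoters, and 14.5% and 14.3% over the genes apart on the high and the low side. The genes were listed as targets of NRF2, so a high share of the element belongs to the choice of the list. It is no result of these cultures. The windows of Gclm (chr3:122245307-122245606, plus strand), Prdx1 (chr4:116685349-116685648, plus strand) and Txnrd1, a thioredoxin reductase (-1.13, chr10:82858956-82859255, plus strand), are shown 5′ to 3′, as examples of the element among genes that stood together. Capitals mark the match, which begins at positions -134, -133 and -92 from the start and reads on the opposite strand in all of them. The element can overlap the AP-1 motif TGANTCA, as it does in the Prdx1 window, which 3 of the 17 windows (17.6%) held. Of the windows of all genes compared 5.36% held it.
Gclm: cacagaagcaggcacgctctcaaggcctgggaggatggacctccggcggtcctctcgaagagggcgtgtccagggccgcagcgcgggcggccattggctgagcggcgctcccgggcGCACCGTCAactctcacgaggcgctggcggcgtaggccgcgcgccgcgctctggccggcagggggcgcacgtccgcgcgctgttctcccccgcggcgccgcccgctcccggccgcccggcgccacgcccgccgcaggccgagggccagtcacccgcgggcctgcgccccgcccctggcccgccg
Prdx1: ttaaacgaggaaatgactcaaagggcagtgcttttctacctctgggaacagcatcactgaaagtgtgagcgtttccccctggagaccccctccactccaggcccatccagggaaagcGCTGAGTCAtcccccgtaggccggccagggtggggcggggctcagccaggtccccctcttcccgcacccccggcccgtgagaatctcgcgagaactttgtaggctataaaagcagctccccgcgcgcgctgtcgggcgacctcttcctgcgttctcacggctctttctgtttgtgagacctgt
Txnrd1: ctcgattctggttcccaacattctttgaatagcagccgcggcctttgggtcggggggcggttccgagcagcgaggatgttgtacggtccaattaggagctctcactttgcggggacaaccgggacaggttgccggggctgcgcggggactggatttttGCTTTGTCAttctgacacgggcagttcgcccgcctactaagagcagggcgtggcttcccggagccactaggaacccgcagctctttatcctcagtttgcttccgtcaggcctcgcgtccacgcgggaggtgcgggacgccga

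The NADPH oxidase, which makes superoxide in phagocytes, had members on both sides. Of its 6 genes 2 (33.3%) were apart and higher in the high set and 3 (50%) in the low set. The shares over all genes were 17.9% and 16.9%, and the list is short. Cybb, the catalytic subunit, was at 702, 2297, 894, 1217 and 739 CPM in the low cultures and 149, 151.03, 64.6, 119 and 71.9 CPM in the high ones, and Ncf1 at 185, 429.7, 224, 328 and 243 and 60.6, 56.3, 28.5, 43.3 and 37.8 CPM. Ncf4 (0.35) and Rac2 were apart in the other direction, and Cyba overlapped (-0.17).

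Macrophage genes made up a large group on the low side. Of 29 measured identity genes, 13 were apart and higher in the low set and 1 in the high set, with a median of -2.10. Adgre1, which encodes F4/80, was at 303, 1086, 709, 813 and 878 CPM in the low cultures and 138, 132, 79.6, 152 and 65.9 CPM in the high ones. Lyz2, lysozyme, was at 7107, 22026, 13034, 24254 and 15029 CPM in the low cultures and 3006, 2911, 1352, 2028 and 3290.3 CPM in the high ones, and the scavenger receptor gene Cd36 was 11.2-fold higher in the low set by the means. Csf1r, the M-CSF receptor on which precursors and osteoclasts both depend, differed by -0.04. The member on the other side was Lyve1, at 0.0300 to 0.179 CPM in the low set and 0.345 to 1.04 CPM in the high set. The other 15 members overlapped. The summed level of the list, to which abundant genes such as Lyz2 add most, was 19838 to 53636 CPM in the low set and 8062 to 10832 CPM in the high set. The mean of the list, in which every member counts alike, overlapped, at 5.49 to 7.33 in the low set and 4.39 to 5.75 in the high set (log2 CPM). The part of macrophage RNA in the other differences was not tested.

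Inflammatory genes were higher in the low set in 12 of 27 measured members that were apart, against 1 on the other side, with a median of -1.73. The neutrophil chemokine gene Cxcl2 was at 11.8, 337, 33.1, 141 and 106 CPM in the low cultures and 2.47, 3.04, 0.869, 1.31 and 1.82 CPM in the high ones, with double-mutant replicate 2 the highest and double-mutant replicate 4 the lowest of the low set. Tnf was at 16.6, 140.4, 36.97, 50.7 and 67.5 CPM in the low cultures and 9.25, 8.33, 7.48, 7.97 and 13.1 CPM in the high ones, and the pattern receptor gene Tlr2 differed by -3.04. Ccr1, a chemokine receptor of osteoclasts, was the member on the high side (1.55), and Il1b (-1.25) and Nos2 (-2.14) overlapped. MHC class II and costimulation genes had a median of -1.49, with 3 of 13 (23.1%) apart and higher in the low set. Interferon response genes had a median of -1.28, with 7 of 28 (25%) apart in that direction. The share over all genes was 16.9%, and most members of both lists overlapped. Both lists varied widely within the low set. The mean of the MHC list was 3.43 to 5.87 in the low set and 1.96 to 3.47 in the high set (log2 CPM), so these ranges overlapped. Cd74, the invariant chain, was at 635, 3527, 607, 2879 and 1199 CPM in the low cultures and 308, 296, 61.7, 158 and 183 CPM in the high ones. The interferon list had means of 5.15 and 5.21 in FLT3 ITD replicate 4 and double-mutant replicate 1, and of 3.73 to 4.09 in the other low cultures, against 2.37 to 3.78 in the high set (log2 CPM).

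Early response and feedback genes of cytokine signalling were on the low side in 8 of 20 measured members that were apart and on the high side in 1. Egr2 was at 33.01, 135, 14.3, 80.8 and 24.8 CPM in the low cultures and 3.41, 3.04, 1.28, 2.32 and 2.77 CPM in the high ones, and Dusp5 (-3.03), a phosphatase of ERK, and Pim1 (-2.41), a kinase induced by STAT5, were lower in the high set as well. Socs2, at 0.398 to 1.75 CPM in the low set and 1.91 to 6.65 CPM in the high set, was the exception. Among apoptosis genes, the death-promoting Bmf (1.62) and Pmaip1 (2.07) were apart and higher in the high set, and the survival genes Bcl2l1 (-1.49) and Bcl2 (-1.26) in the low set. In all 6 of 19 (31.6%) were on the high side and 3 (15.8%) on the low side, where the shares over all genes were 17.9% and 16.9%.

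Genes of cell division varied more within the low set than between the sets. Of 30 genes of G2 and mitosis, 0 were apart, and the median difference was -0.02 (0.01 with RLE size factors). Mki67, the Ki-67 gene, was at 550.2, 155, 811, 22.4 and 144 CPM in the low cultures and 289, 260.0, 170.1, 156 and 108 CPM in the high ones. The low set held both the highest values, in double-mutant replicates 1 and 4, and the lowest, in FLT3 ITD replicate 4. The mean of the list was 7.395 and 6.76 in these double mutants, 4.74 in double-mutant replicate 2, 4.71 in Ptprc KO replicate 4 and 3.07 in FLT3 ITD replicate 4, where the high set had 4.85 to 5.59 (log2 CPM). Without double-mutant replicate 1 the median was 0.51, without double-mutant replicate 4 it was 0.36, and without FLT3 ITD replicate 4 it was -0.62. Of 28 S phase genes, Pcna was apart and higher in the low set (-1.24) and Chaf1b in the high set (1.20).

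Markers of other cell types are given by their summed level, and their part in the differences was not tested. Neutrophil markers summed to 60 to 317 CPM in the low set and 24.7 to 68.6 CPM in the high set, with 1 of 12 measured genes apart. Dendritic cell markers summed to 140 to 542 and 70.6 to 94.5 CPM, and monocyte and progenitor markers to 79.3 to 169.9 and 19.9 to 38.8 CPM. A few genes carried these sums. Of 10 dendritic cell markers, Itgax (-2.57) and Bst2 (-1.56) were apart and higher in the low set, 5 had a positive difference, and the median was -0.16. Of 16 monocyte and progenitor markers 0 were apart and higher in the low set, and the median was -0.24. Ly6a had the highest mean of them, 54.3 ± 46.7 CPM in the low set and 14.6 ± 7.39 CPM in the high set (SD, n = 5 and 5), with overlapping ranges. Kit and Gata2, which are on this list and on that of mast cell markers, were apart and higher in the high set. Within the high set they were at 1.56 to 2.28 and 3.32 to 5.85 CPM, respectively. Mast cell and basophil markers summed to 0.674 to 3.67 CPM in the low set and 5.29 to 7.54 CPM in the high set. Fcer1a, Cma1, Mcpt4 and Mcpt8 were at 0 counts in all 10 cultures. Stromal and osteoblast markers other than Spp1, which osteoclasts express, summed to 17.1 to 27.7 CPM in the low set and 9.14 to 12.5 CPM in the high set. Of these, Col1a1, at 3.09, 0.726, 0.949, 2.08 and 3.07 CPM in the low cultures and 0.375, 0.345, 0, 0.219 and 0.390 CPM in the high ones, Col1a2, Col3a1 and Sparc were apart and higher in the low set. T and NK cell markers summed to 0.869 to 47.5 and 0.217 to 11.6 CPM, B cell markers to 0.490 to 3.89 and 0.303 to 2.41 CPM, eosinophil markers to 21.2 to 52.0 and 54.4 to 87.6 CPM, and adipocyte and endothelial markers to 22.7 to 98.1 and 17.1 to 40.2 CPM. Erythroid and megakaryocyte markers summed to 32.1 to 323 and 11.3 to 45.3 CPM, with Alas2, Car1, Hba-a2, Gp9 and Gp1bb at 0 counts in all 10 cultures.

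Without reference to any list, the 12 genes with the largest differences on each side were taken among genes that were apart with at least 10 CPM in the higher set. On the high side stood Atp1b1, Adgrb1, Mt3, Samd12, Card14, Akr1c18, Trim54, Slc6a17, Cyp2s1, Sphk1, Lrrc39 and Clic5, with differences of 3.80 to 4.52. Atp1b1 (ENSMUSG00000026576, GRCm38 chromosome 1, 164437109 to 164458355, minus strand), a sodium pump beta subunit, was at 0.810, 1.11, 0.735, 0.999 and 3.00 CPM in the low cultures and 21.5, 18.2, 43.5, 32.9 and 30.4 CPM in the high ones, 22.04-fold higher by the means. Mt3 (ENSMUSG00000031760, chromosome 8, 94152607 to 94154146, plus strand), a metallothionein, was at 4.68, 7.36, 18.8, 25.3 and 37.6 CPM in the low cultures and 209, 209, 321, 256 and 608 CPM in the high ones. Its level in FLT3 ITD replicate 2 was the highest, and the gene is short, with a length of 1066 bases in the deposited table where the median of all genes compared is 4513.5. Adgrb1 (ENSMUSG00000034730, chromosome 15, 74516195 to 74589465, plus strand), an adhesion receptor that binds apoptotic cells, was at 0.330, 0.553, 0.919, 1.498 and 1.82 CPM in the low cultures and 18.8, 20.3, 17.2, 15.1 and 24.99 CPM in the high ones. Cyp2s1 (ENSMUSG00000040703, chromosome 7, 25802475 to 25816913, minus strand), a cytochrome P450, was at 48.7, 25.9, 17.4, 14.4 and 96.05 CPM in the low cultures and 454, 491, 629, 537 and 316 CPM in the high ones. Card14 (ENSMUSG00000013483, chromosome 11, 119307768 to 119345375, plus strand), a scaffold of NF-kB signalling, was at 1.65 to 6.19 CPM in the low set and 40.8 to 64.5 CPM in the high set. All 4 WT cultures lay between the sets for Atp1b1 and Adgrb1.

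On the low side stood Cxcl3, Cxcl2, Ptgs2, Acod1, Egr2, Serpinb9b, Tarm1, Mmp12, Ppbp, Ccl6, Gsta3 and Pald1, with differences of -3.64 to -5.73. Mmp12 (ENSMUSG00000049723, chromosome 9, 7344381 to 7369499, plus strand), the macrophage elastase, was at 3067, 5815, 2042, 4648 and 1041 CPM in the low cultures and 251, 282, 113, 192 and 233 CPM in the high ones. Acod1 (ENSMUSG00000022126, chromosome 14, 103046977 to 103056573, plus strand), which makes itaconate, was at 53.5, 273, 61.99, 219.6 and 124 CPM in the low cultures and 8.63, 7.49, 4.08, 6.57 and 4.42 CPM in the high ones. Ptgs2 (ENSMUSG00000032487, chromosome 1, 150100031 to 150108227, plus strand), the inducible cyclooxygenase COX-2, was at 2.25, 35.03, 4.81, 19.6 and 9.07 CPM in the low cultures and 0.469, 0.470, 0.302, 0.219 and 0.606 CPM in the high ones. For these genes double-mutant replicates 4 and 1 held less than double-mutant replicate 2 and FLT3 ITD replicate 4. Cxcl3 (ENSMUSG00000029379, chromosome 5, 90786103 to 90789600), Cxcl2 (ENSMUSG00000058427, 90903871 to 90905938) and Ppbp (ENSMUSG00000029372, 90768518 to 90770063) lie on the same stretch of chromosome 5. Atp1b1, Samd12, Card14, Lrrc39 and Mmp12 overlap an annotated coding gene on the other strand (for Card14 this is Sgsh), and Cxcl2, Cxcl3, Akr1c18, Gsta3 and Ccl6 have close relatives. These genes are uncertain to the extent that reads are shared, as strand use and the handling of shared reads were not given in the sources used here.

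**Figure D5:**
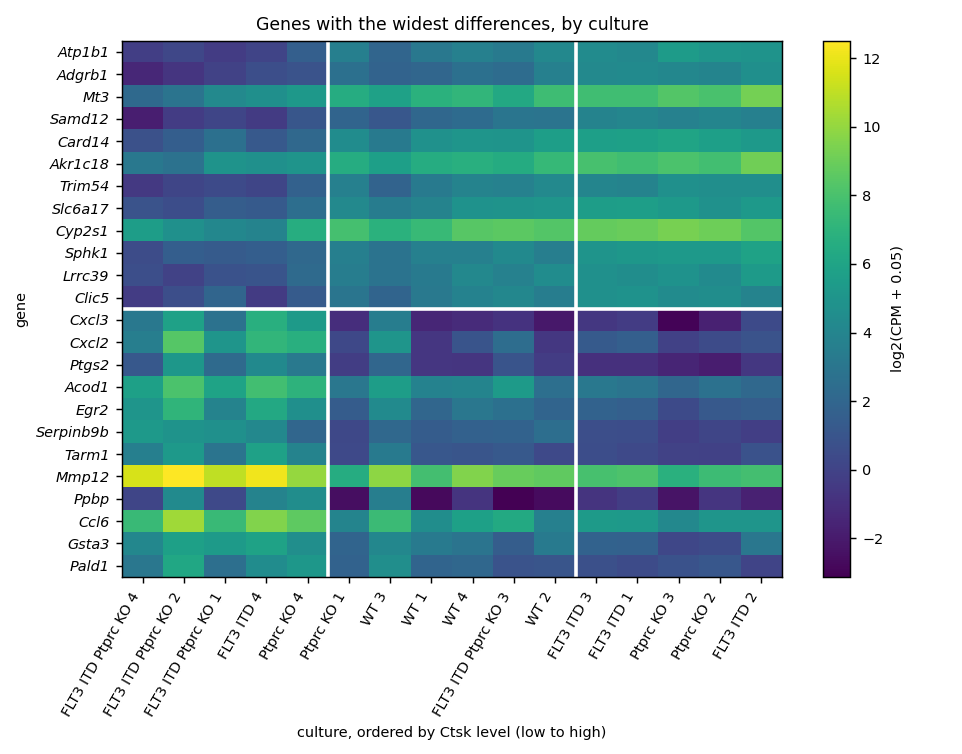
Level of the 24 genes with the widest differences (colour, log2 of CPM + 0.05) in the 16 cultures ordered by Ctsk, with white lines at the limits of the low and high sets and between the 12 genes higher in the high set and the 12 higher in the low set. For Cxcl2, as an example, the low cultures run from 11.8 to 337 CPM, the high ones from 0.869 to 3.04 CPM, and WT replicate 3, at 32.9 CPM, stands with the low set.

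The 6 cultures in between were set against the 4209 genes that were apart. Of the 2160 genes higher in the high set, WT replicates 1, 2 and 4 lay above all 5 low cultures for 78.9, 88.8 and 84.2%, Ptprc KO replicate 1 for 74.4% and double-mutant replicate 3 for 82.6%. WT replicate 3 did so for 52.6%. Of the 2049 genes higher in the low set, WT replicate 3 lay below all 5 low cultures for 31.5%, and the other 5 for 73.9 to 87.8%. By Ctsk itself WT replicate 3 did not differ in the same way, at 7855 counts per 1000000, next to WT replicate 1 at 7916. On the leading principal component over 1000 genes of highest variance (57.4% of their variance), WT replicate 3 was at -23.0, with the low set at -61.9 to -32.6, the high set at 27.5 to 41.3 and the rest of the cultures in between at 7.11 to 27.6. Ptprc KO replicate 1 (19.3) and Ptprc KO replicate 4 (-33.6) were on opposite sides of it, although their Ctsk levels, 6694 and 6048, were neighbours across the limit of the low set.

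Since 3 of the 5 low cultures and 0 of the 5 high ones were double mutants, the Ctsk level and this genotype cannot be told apart over the whole sets, but Ptprc KO and FLT3 ITD had cultures in each. Within Ptprc KO (replicates 2 and 3 against replicate 4) the median difference was 0.90 for resorption genes, 0.85 for the V-ATPase, 0.85 for complexes II to V, 1.02 for fusion and identity genes, -1.49 for NRF2 targets and -2.21 for macrophage genes. Within FLT3 ITD (replicates 1 to 3 against replicate 4) these medians were 1.11, 1.06, 1.09, 1.36, -1.69 and -2.90. Resorption genes and complexes II to V had smaller medians within these genotypes than over the whole sets (1.47 and 1.15), and macrophage genes larger ones (-2.10 over the whole sets). The change stayed within the spread between cultures for complexes II to V within FLT3 ITD and for macrophage genes within Ptprc KO. The TCA cycle had medians of 1.02 within Ptprc KO and 1.31 within FLT3 ITD, against 1.28 over the whole sets. Interferon response genes had a median of -0.20 within Ptprc KO and -2.21 within FLT3 ITD, and G2 and mitosis genes of 0.17 and 2.67. These differences rest on 1 low culture each and were not tested. Within FLT3 ITD, the levels of replicate 4 and of replicate 2 both fell off with gene length.

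The genotypes, which the labels define, were compared with edgeR's quasi-likelihood test over all 16 libraries, with Benjamini-Hochberg adjustment over 12092 genes. The test called 5 genes (0.0413%) for FLT3 ITD against WT, 4 (0.0331%) for Ptprc KO against WT, 1 (0.00827%) for the double mutant against FLT3 ITD and 11 (0.091%) for the double mutant against Ptprc KO. DESeq2 called 60, 11, 982 and 332 genes in these comparisons. The call counts depended on single libraries: for FLT3 ITD against WT edgeR called 0 genes without WT replicate 1 or 3, 1 without WT replicate 4 or FLT3 ITD replicate 1, 2 or 3, 3 without WT replicate 2 or FLT3 ITD replicate 4, and 0 in a fit to only these groups, where 1021 genes had an unadjusted p under 0.05 in the fit to all libraries. With FLT3 ITD replicates 1 and 3 summed as 1 library the calls were 1, 5, 1 and 9. For the double mutant against Ptprc KO edgeR called 2 genes without double-mutant replicate 1, 4 without double-mutant replicate 4 and 6 without Ptprc KO replicate 2 or 3. For Ptprc KO against WT it called 2 without WT replicate 4, and for the double mutant against FLT3 ITD 2 without double-mutant replicate 2 or 4. For FLT3 ITD against WT these were Wdfy1, Cdh13 and Lzts2 (higher) and Vsig4 and Paqr9 (lower), where Vsig4, a complement receptor of macrophages, was at 0 counts in all 8 libraries with the FLT3 ITD allele. For Ptprc KO against WT they were Stard13 (higher) and Ptprc, Glrp1 and Rbm44 (lower), and for the double mutant against FLT3 ITD Ptprc alone. None of the genes called in the 4 comparisons was apart between the low and high sets, and 0 of the 24 genes with the widest differences passed in any of the 4 comparisons, the smallest adjusted p being 0.11 for Adgrb1 in the double mutant against FLT3 ITD (log2 fold change -3.23, SE 0.98, edgeR quasi-likelihood test). FLT3 ITD and Ptprc KO cultures lie in both sets, so a gene set by genotype alone can hardly be apart. A gene that is apart also varies within these genotypes, which widens the spread in the test. The counts of 0 therefore do not show that Ctsk level and genotype are unrelated. Without FLT3 ITD replicate 4, a low culture, 1795 genes were called for the double mutant against FLT3 ITD. Without double-mutant replicate 3, the double mutant outside the low set, 1310 genes were called in that comparison and 785 for the double mutant against Ptprc KO. In each of these fits every remaining double mutant held less Ctsk than every culture it was compared with. The calls thus also follow the value that chose the sets and are given as a description.

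Ctsk CPM is the value that chose the sets, so fits that hold it as a term are given as a description. With log2 Ctsk CPM as a term in the same edgeR fit the calls were 9 (0.0744%), 6 (0.0496%), 1 (0.00827%) and 1 (0.00827%). The genes at an unadjusted p under 0.05 went from 1021 to 1276 for FLT3 ITD against WT and from 102 to 146 for Ptprc KO against WT. For the double mutant they went from 3103 to 1094 against FLT3 ITD and from 2154 to 724 against Ptprc KO. Of the genes called without the term, 4 of 5, 4 of 4, 1 of 1 and 1 of 11 were called with it. Ctsk was measured in the same libraries and is tied to genotype in them, with a mean log2 CPM of 11.15 ± 1.30 in the double mutant and 12.99 ± 0.151 in WT (SD, n = 4 and 4), so a fit with this term does not separate a genotype effect on Ctsk from other differences between cultures.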

How the data were processed

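RNA was taken from 16 mouse osteoclast cultures of 4 genotypes, and 500 ng of each entered a directional poly(A) library with molecular identifiers, per the labels' protocols. The deposited values are whole-number counts per gene, with the authors' TPM (transcripts per 1000000) and gene length beside them. The submitters' processing notes name STAR 2.7.6a with the build GRCm38.p6, UMI-tools 1.1.1, featureCounts 2.0.3, cutadapt 4.2 and bcl2fastq 2.20.0.422, with the order of steps, their settings and strand use not given in the sources used here. Gene positions are from GENCODE M21, which holds 21817 of the 21936 gene identifiers, and promoter sequences from RefSeq (GRCm38.p6).

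Cultures were ranked by Ctsk counts per 1000000 of the library total, with no use of genotype, and Ctsk was then removed. Genes were filtered with edgeR's filterByExpr (edgeR 4.0.16, R 4.3.3). Levels are counts per 1000000 (CPM) of TMM-scaled library sizes, and differences are on log2 CPM with a prior count of 2. Since a measured gene chose the cultures, no test was made between the sets. Genotypes were compared with edgeR's quasi-likelihood test on the counts (4 genotype means, 16 libraries, Benjamini-Hochberg adjusted p of 0.05), with and without log2 Ctsk CPM as a term. The common dispersion was 0.137. The p-values measure the spread between cultures, which may be technical in part.

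The genes named without a list are the 12 per direction with the largest difference among those apart with at least 10 CPM in the higher set, leaving out predicted models, Y-linked and mitochondrially encoded genes. Listed genes and the targeted genes are named as well. Gene lists and members were chosen with earlier results of these data known. Alternatives were other size factors, prior counts and filters, log2(TPM + 1), other set sizes and rankings, comparisons within a genotype, leaving out each library, DESeq2 1.42.0, limma 3.58.1, a replicate block and fits to 2 groups only. The ranking by TMM-scaled CPM and the sum of FLT3 ITD replicates 1 and 3 as 1 library were added after the data were seen. Deviations from the group means of equally numbered cultures correlated at -0.633 to 0.851, and those of differently numbered ones at -0.747 to 0.846. Such ranges cannot settle whether replicate numbers pair the cultures, and a batch shared by equal numbers was not tested.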

Additional observations from a re-analysis of the deposited data

Results flagged for a closer look

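The mean log2 CPM of 16 gene lists was compared within each genotype (4 cultures) and each Ctsk set (5 cultures), in 96 groups, and 12 values lay farther from the rest of their group than Dixon's 95% limit. Chance gives about 1 in 20 independent groups, and these groups share cultures. FLT3 ITD replicate 4 and Ptprc KO replicate 4 are the only low cultures of their genotypes, so their flags also follow the value that chose the sets. The sets themselves were chosen by a measured level. All flags are therefore given as a description.

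Among FLT3 ITD cultures, replicate 4, the one in the low set, stood apart for 7 lists. It was at 5.83 for repressors of osteoclast differentiation (the others 4.16 to 4.31), at 7.15 for the TCA cycle (8.34 to 8.53) and at 4.08 for S phase genes (5.35 to 5.48). It was at 3.07 for G2 and mitosis (5.56 to 5.59) and at 5.28 for inflammatory genes (3.11 to 3.15). For NRF2 targets it was at 8.79 (6.94 to 7.16), and for lysosomal genes at 8.28 (7.956 to 8.004).

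Among Ptprc KO cultures, replicate 4, also in the low set, was at 8.30 for NRF2 targets (6.73 to 6.86), and replicate 1, its neighbour by Ctsk, was at 6.41 for G2 and mitosis (4.71 to 4.97). Among WT cultures, replicate 3 was at 7.93 for NRF2 targets (7.06 to 7.11). Among double mutants, replicate 2 was at 5.87 for MHC class II and costimulation (3.43 to 3.76). Within the high set, FLT3 ITD replicate 2 was at 7.52 for complex I (6.45 to 6.71).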

How the results depend on the processing

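Of 208 alternative values of 16 list medians, those with 1 library left out not counted, 193 stayed within the spread between cultures, 10 moved by more and 5 changed sign. Of 552 alternative values of the 24 genes with the widest differences, 521 stayed within that spread, 31 moved and 0 changed sign. Ranking by Ctsk TPM chose the same low and high sets, and a changed filter leaves the difference of a single gene as it was. Those values are the same by construction, and the 24 genes were picked for their wide differences. Both tallies thus overstate how stable the values are. The count of genes apart and higher in the high set was 1413 with log2(TPM + 1), 1357 with 6 cultures a set, 5373 within Ptprc KO and 4269 within FLT3 ITD. That of genes higher in the low set was 849 with 6 cultures a set, 1254 when ranked by TMM-scaled CPM, 5452 within Ptprc KO and 4288 within FLT3 ITD. Smaller sets overlap less by construction. Within Ptprc KO the medians were 0.90 for resorption, 0.85 for the V-ATPase, 1.02 for fusion, 0.85 for complexes II to V, 1.02 for the TCA cycle, -0.20 for interferon and 0.17 for G2 and mitosis. Within FLT3 ITD they were 1.11 for resorption, 1.36 for fusion, -2.90 for macrophage, -2.21 for interferon, 1.40 for S phase, 2.67 for G2 and mitosis and -0.0147 for lysosomal genes. The median of G2 and mitosis was 0.0125 with RLE size factors and -0.62 to 0.51 when 1 library was left out, with a change of sign in 4 more cases, to 0.36, 0.51, 0.05 and 0.08. The cause was not tested. Calls between genotypes are listed for FLT3 ITD and Ptprc KO against WT and the double mutant against FLT3 ITD and Ptprc KO, in this order. DESeq2 called 60, 11, 982 and 332 genes, and fits to only 2 groups called 0, 2, 0 and 0, where edgeR over all groups had 1021, 102, 3103 and 2154 genes at an unadjusted p under 0.05. With FLT3 ITD replicates 1 and 3 summed as 1 library, 1 was called in the first. A mean count of at least 50 left 1, 2, 1 and 3. With log2 Ctsk CPM as a term 9 and 1 were called in the first and last. limma on log2(TPM + 1) called 2 in the second and 2 in the third. The replicate block, on which the pairing check does not decide, gave 0, 1, 1 and 49. With 1 library left out the calls ran from 0 to 3, 2 to 4, 1 to 1795 and 2 to 785, the upper ends of the last 2 without FLT3 ITD replicate 4 and double-mutant replicate 3. At these upper ends the groups compared do not overlap in Ctsk level. The depth, 24211724 counts or more a library, leaves genes of a few counts, such as those of other cell types, imprecise.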
